A study of Brassica oleracea with 8 samples.

Results

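Lobed kale was compared with TO1000 in RNA sequencing libraries of the upper stem, the shoot tip with its immature leaves and apical and lateral meristems. The comparison used 6 of the 8 libraries of the series, the 3 titled Kale and the 3 titled TO1000, and fitted them on their own. Each library pooled 8 plants that had grown under short days in one chamber and were cut 24 days after sowing. The labels call the kale line B. oleracea var. viridis, while the methods of the study call it var. acephala Red Winter. TO1000 is a rapid cycling doubled haploid, B. oleracea var. alboglabra, and its own genome was the reference to which all reads were mapped. A single accession stands for each line, and no agent was applied, so the lines are what was compared. They were cut at one age, and the study's ranges of fully expanded leaves overlapped without being the same. Genotype and stage of development therefore cannot be told apart here. The question asked of this comparison was which genes set the leafy crop apart from the rapid cycling line.

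Kale is harvested for its leaves and keeps making them for a long vegetative phase, whereas rapid cycling lines were bred to flower early. In Brassicaceae the switch to flowering is held back by FLC and related MADS-box proteins, which keep SOC1 and other integrators low until cold or age lifts the block. Leaves of these plants also store glucosinolates apart from the enzyme myrosinase, and both meet only when tissue is crushed. Leaf hairs, the trichomes, are set out by a complex of MYB and bHLH proteins that turns on GL2 and its own inhibitor TRY.

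Reads counted on genes ranged from 4742169 to 7539991 per library, and the 100 most counted genes took 28.4% to 35.5% of them in Kale and 21.5% to 25.2% in TO1000. Of 60586 annotated features, 25925 passed the count filter of edgeR. Expression is printed in CPM, for which each library total was scaled by its TMM factor. A gene was called at a Benjamini-Hochberg adjusted p under 0.05 and a log2 fold change beyond 1, the limits the study also set. On log2 CPM, distances between a Kale and a TO1000 library lay between 219.6 and 235, and those between replicates between 60.7 and 103.9. Kale replicates differed more (mean distance 95.5) than TO1000 replicates (75.9). A first principal component held 82.5% of variance among them. Replicates were separate pools, and all p-values measure the spread among these pools only.

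Of the 25925 tested features, 6957 were called, 26.8% of all, with 3537 (13.6%) higher in Kale and 3420 (13.2%) lower. The median log2 fold change was 1.85 in size among the higher genes and 1.80 among the lower. Changes beyond a log2 fold change of 3 were found in 1020 higher and 888 lower genes, and beyond 5 in 458 and 416. The libraries of the lines did not overlap in 53.3% of tested features, so a lack of overlap alone is a common state here. The share called was 50.1% among the 25% of genes with the lowest mean level and 14.8% among the 25% with the highest. Part of that gradient was fixed by the filter, since 2599 genes reached the minimum level in libraries of one line only and 2459 of these were called. Among the 23326 genes that reached it in some library of each line, 4498 (19.3%) were called. A gene of this set can still have passed mainly through the libraries of a single line. A test for a change beyond 2-fold, glmTreat, called 3853 genes, and the adjusted p alone called 11272.

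**Figure D1:**
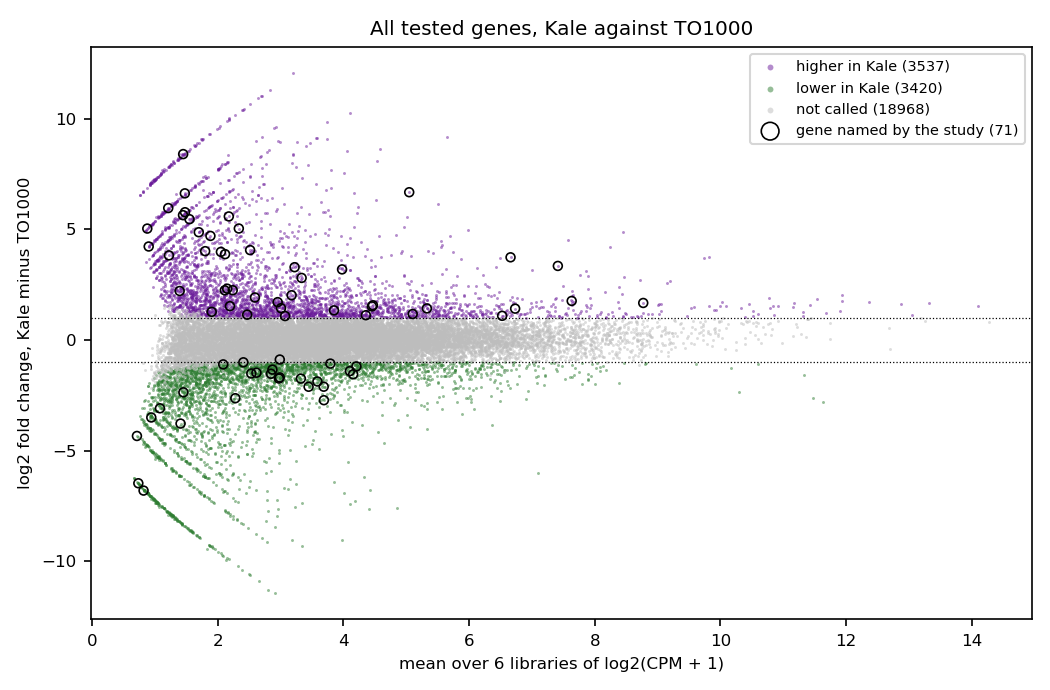
Fitted log2 fold change (Kale minus TO1000) of every tested gene against its mean log2(CPM + 1) over 6 libraries, with called genes coloured, the fold limits dotted and the 71 tested genes that the study names circled. The 3537 higher and 3420 lower genes are spread over the whole range of levels, and the slanting lines of points at the left are genes with 0 or a few counts in one line.

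The study pairs 79 identifiers with gene names, and these are the genes described by role here. Of the 79, 71 passed the filter, and 45 of these were called higher and 25 lower in Kale. GRF3 was the one tested gene not called. The study chose these genes on the same libraries, so their number and direction are not independent evidence. Of the 71, 46 reached the minimum level in some library of each line and 45 of those were called, against 19.3% of all such features. The other 25 passed the filter through one line only, 18 through Kale and 7 through TO1000, and so had to differ. All 25 were called, and their values are given without a p. The other 8 identifiers reached the minimum level in too few libraries. With no count filter all 8 were called, 6 higher and 2 lower, against 9779 of 53489 features. The libraries of the lines did not overlap in 78 of the 79 genes, 50 higher in Kale (27.6% of all tested features) and 28 lower (25.7%), and IGMT4 was the gene that overlapped. In a bulk library fewer cells of a type and less RNA per cell cannot be told apart. Roles given below are those known from Arabidopsis. Copies are those the study names, which may not be all copies of a gene.

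Some ratios rest on 1 library. Without TO1000 replicate 1 the TO1000 counts of FER3, GL1 and MYB29 were 0, and without TO1000 replicate 3 those of both REVOLUTA copies. Without Kale replicate 1 the Kale count of XIK was 0, and without Kale replicate 2 those of IGMT1 Bo2g092680 and AGL70/MAF3. The TO1000 count of WRKY44 Bo4g030720 was also 0 without TO1000 replicate 3.

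**Figure D2:**
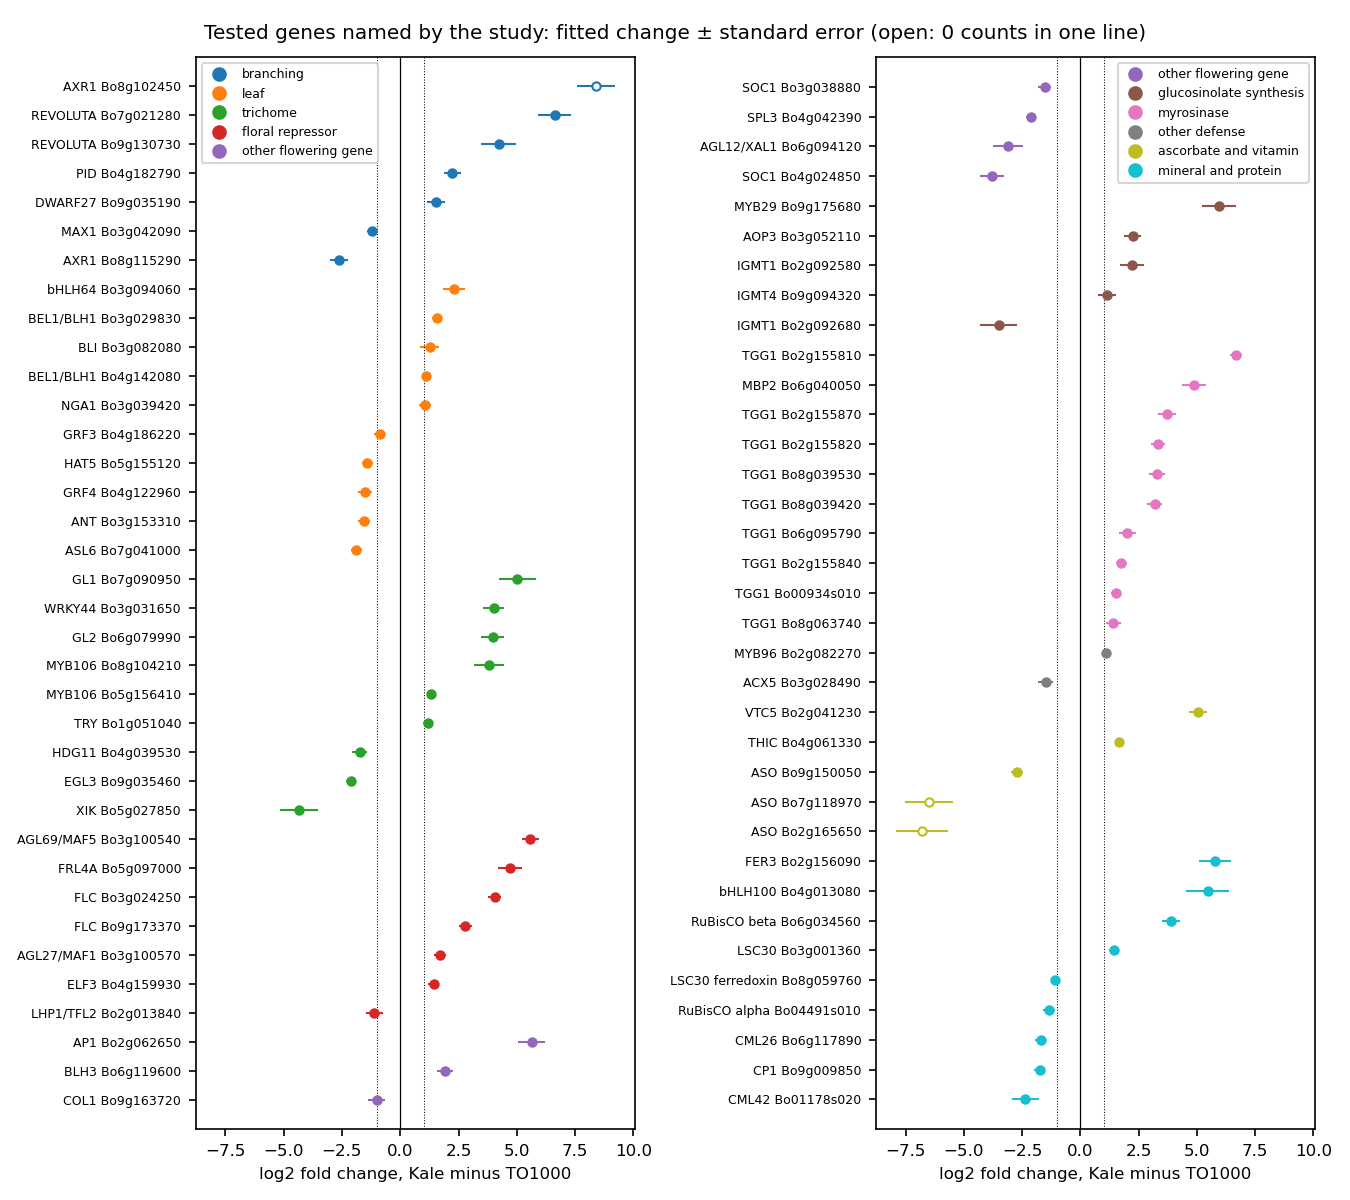
Fitted log2 fold change with its standard error for the 71 tested genes named by the study, grouped by role, with dotted lines at the fold limits. The 9 TGG1 copies and MBP2 all lie to the right, and open symbols mark 3 genes with 0 counts in one line, whose fitted value is not a bound.

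The repressors of flowering were higher in Kale in 6 of 7 tested genes (13.6% of all tested features) and lower in 1 (13.2%). Of the 6, FLC Bo3g024250, AGL69 and FRL4A passed the filter through Kale only. FLC, the central repressor that vernalization silences, was followed in the 2 copies the study names. FLC Bo3g024250 had 16.8, 15.0 and 16.0 CPM in the Kale libraries, against 0.950, 0.966 and 0.896 CPM in the TO1000 libraries (log2 fold change 4.06, SE 0.27). FLC Bo9g173370 had 31.4, 17.5 and 20.8 CPM in the Kale libraries, against 3.17, 3.86 and 2.99 CPM in the TO1000 libraries (log2 fold change 2.80, SE 0.27, adjusted p = 2.36e-06, edgeR). In Bo9g173370 the lowest Kale library was several-fold above the highest TO1000 library. The separation of Bo3g024250 was fixed by its passing the filter through Kale only.

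The MADS-box genes next to FLC in function were also higher in Kale in 2 tested members. AGL69/MAF5 (Bo3g100540), for which the study also uses the name AGL68, had 16.6, 15.5 and 12.8 CPM in the Kale libraries, against 0.158, 0.414 and 0.299 CPM in the TO1000 libraries (log2 fold change 5.58, SE 0.36). AGL27/MAF1 (Bo3g100570), whose identifier follows close after on chromosome 3, had 13.0, 10.3 and 12.6 CPM in the Kale libraries, against 3.96, 3.59 and 3.43 CPM in the TO1000 libraries (log2 fold change 1.71, SE 0.24, adjusted p = 6.62e-05, edgeR). AGL27 was separated without overlap, as were 27.6% of all tested features in that direction. The separation of AGL69 was fixed by its passing the filter through Kale only. AGL68/MAF5 (Bo01054s030) was below the filter, with 52 counts over the Kale libraries and 0 in TO1000, which puts Kale at least 20.8-fold higher. AGL70/MAF3 (Bo03856s010) went the other way, with 2 counts over the Kale libraries against 29 over TO1000; TO1000 to Kale, the ratio was 12.1 (95% counting interval 3.06 to 105). A count of 0 over a line allows up to 3 counts, 0.178 CPM in Kale and 0.148 CPM in TO1000, and such bounds and intervals cover counting error only, since PCR copies were not told apart.

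FRL4A (Bo5g097000), of the FRIGIDA-like family, had 9.28, 8.11 and 11.2 CPM in the Kale libraries, against 0, 0.276 and 0.746 CPM in the TO1000 libraries (log2 fold change 4.70, SE 0.51). The FRL4A value was 5.81 without TO1000 replicate 3. ELF3 (Bo4g159930), a clock protein that gates the response to day length, had 13.4, 10.5 and 10.4 CPM in the Kale libraries, against 5.07, 4.00 and 3.73 CPM in the TO1000 libraries (log2 fold change 1.43, SE 0.24, adjusted p = 3.40e-04, edgeR). LHP1/TFL2 (Bo2g013840), a chromatin protein that helps to keep flowering genes silent, was the repressor that fell, with 2.22, 1.98 and 2.42 CPM in the Kale libraries, against 3.33, 5.52 and 5.37 CPM in the TO1000 libraries (log2 fold change -1.11, SE 0.35, adjusted p = 0.0193, edgeR). Its call was lost without Kale replicate 2 (adjusted p = 0.0555), TO1000 replicate 2 (0.0890) or TO1000 replicate 3 (0.0758).

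**Figure D3:**
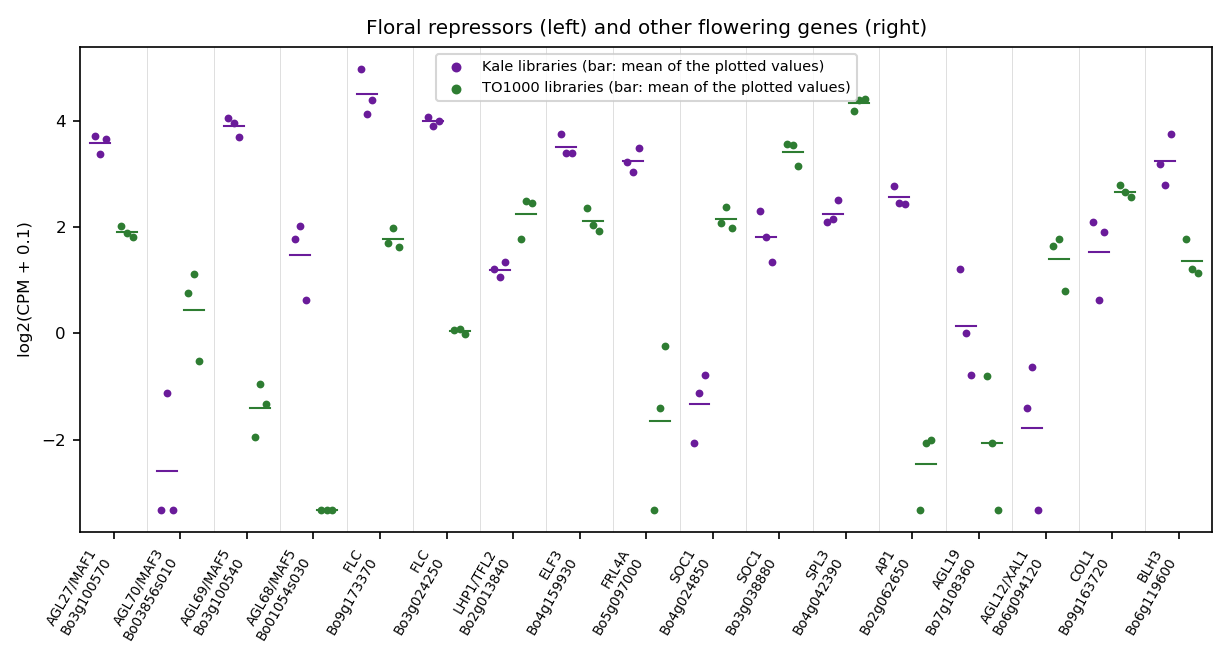
Level of each flowering gene in each library as log2(CPM + 0.1), Kale left of TO1000 within a gene, with bars at the mean of the plotted values. The FLC, AGL69 and FRL4A points of Kale stand far above those of TO1000, the SOC1 and SPL3 points below, and AP1 above; points at the bottom are 0 counts.

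Genes that promote or mark flowering were lower in Kale in 5 of 7 tested cases (13.2% of all tested features) and higher in 2 (13.6%). AP1 passed the filter through Kale only, and SOC1 Bo4g024850 and AGL12 through TO1000 only. SOC1, the integrator that FLC represses, fell in both named copies. SOC1 Bo4g024850 had 0.138, 0.361 and 0.485 CPM in the Kale libraries, against 4.12, 5.11 and 3.88 CPM in the TO1000 libraries (log2 fold change -3.78, SE 0.51). SOC1 Bo3g038880 had 4.85, 3.43 and 2.42 CPM in the Kale libraries, against 11.7, 11.6 and 8.81 CPM in the TO1000 libraries (log2 fold change -1.53, SE 0.28, adjusted p = 5.99e-04, edgeR). SPL3 (Bo4g042390), an age-pathway factor that promotes the floral transition, had 4.15, 4.33 and 5.58 CPM in the Kale libraries, against 18.1, 21.0 and 21.2 CPM in the TO1000 libraries (log2 fold change -2.12, SE 0.22, adjusted p = 4.34e-06, edgeR). In SOC1 Bo3g038880 and SPL3 every Kale library was below every TO1000 library, as in 25.7% of all tested features. For SOC1 Bo4g024850 that order was fixed by the filter.

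AP1 (Bo2g062650), which gives floral meristems their identity, ran against that order. It had 6.78, 5.41 and 5.33 CPM in the Kale libraries, against 0, 0.138 and 0.149 CPM in the TO1000 libraries, from 101 and 2 counts; Kale to TO1000, the ratio was 60.6 (95% counting interval 16.3 to 507). BLH3 (Bo6g119600), a BEL1-like homeodomain protein, was also higher, with 9.0, 6.85 and 13.3 CPM in the Kale libraries, against 3.33, 2.21 and 2.09 CPM in the TO1000 libraries (log2 fold change 1.92, SE 0.33, adjusted p = 3.41e-04, edgeR). AGL12/XAL1 (Bo6g094120), a MADS-box gene known from roots of Arabidopsis, had 0.277, 0.541 and 0 CPM in the Kale libraries, against 3.01, 3.31 and 1.64 CPM in the TO1000 libraries (log2 fold change -3.09, SE 0.64). Without Kale replicate 2 the AGL12 value was -3.81. COL1 (Bo9g163720), of the CONSTANS family, had 4.15, 1.44 and 3.64 CPM in the Kale libraries, against 6.81, 6.21 and 5.82 CPM in the TO1000 libraries (log2 fold change -1.01, SE 0.35, adjusted p = 0.0320, edgeR). The COL1 call was the least firm, and was lost without Kale replicate 2 (log2 fold change -0.69) and without each TO1000 library in turn (adjusted p = 0.0763, 0.0765 and 0.0517). AGL19 (Bo7g108360), a floral promoter, did not reach the filter, with 2.22, 0.901 and 0.485 CPM in the Kale libraries, against 0.475, 0.138 and 0 CPM in the TO1000 libraries.

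Myrosinase reads were higher in Kale in all 9 named TGG1 copies and for MBP2, a myrosinase-binding protein, against 13.6% of all tested features. MBP2 passed the filter through Kale only. Summed over the copies, TGG1 had 1298, 2967 and 1489 CPM in the Kale libraries, against 266, 312 and 292 CPM in the TO1000 libraries. The copies share sequence, so reads could be assigned to one or the other with error. TGG1 Bo2g155810 changed most, with 265, 356 and 249.9 CPM in the Kale libraries, against 3.49, 2.07 and 2.99 CPM in the TO1000 libraries (log2 fold change 6.67, SE 0.25, adjusted p = 8.25e-10, edgeR). Its neighbours in identifier order changed less. Bo2g155820 had 367, 884 and 425 CPM in the Kale libraries, against 52.9, 57.6 and 54.8 CPM in the TO1000 libraries (log2 fold change 3.34, SE 0.29, adjusted p = 1.04e-06, edgeR). For TGG1 Bo2g155840 the values were 285, 545 and 286 CPM in the Kale libraries, against 105, 115 and 110.4 CPM in the TO1000 libraries (log2 fold change 1.76, SE 0.24, adjusted p = 4.66e-05, edgeR). The fourth copy there, Bo2g155870, had 191, 686 and 296 CPM in the Kale libraries, against 24.6, 34.6 and 29.0 CPM in the TO1000 libraries (log2 fold change 3.73, SE 0.38, adjusted p = 4.60e-06, edgeR). These 4 copies follow each other on chromosome 2 with no other tested gene between them.

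The TGG1 copies elsewhere had log2 fold changes of 3.28 (Bo8g039530), 3.19 (Bo8g039420), 2.02 (Bo6g095790), 1.51 (Bo00934s010) and 1.41 (Bo8g063740). Kale replicate 2 was the highest library for each of the 9 copies and for MBP2. Without it 8 copies were called, and Bo8g063740, with 102, 319 and 129.7 CPM in the Kale libraries, against 57.5, 77.7 and 71.8 CPM in the TO1000 libraries, was lost at a log2 fold change of 0.73. Also without Kale replicate 2, Bo2g155870 stood at 3.03 and Bo6g095790 at 1.39. MBP2 (Bo6g040050) had 5.40, 11.2 and 6.79 CPM in the Kale libraries, against 0.317, 0.276 and 0.149 CPM in the TO1000 libraries (log2 fold change 4.87, SE 0.51).

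**Figure D4:**
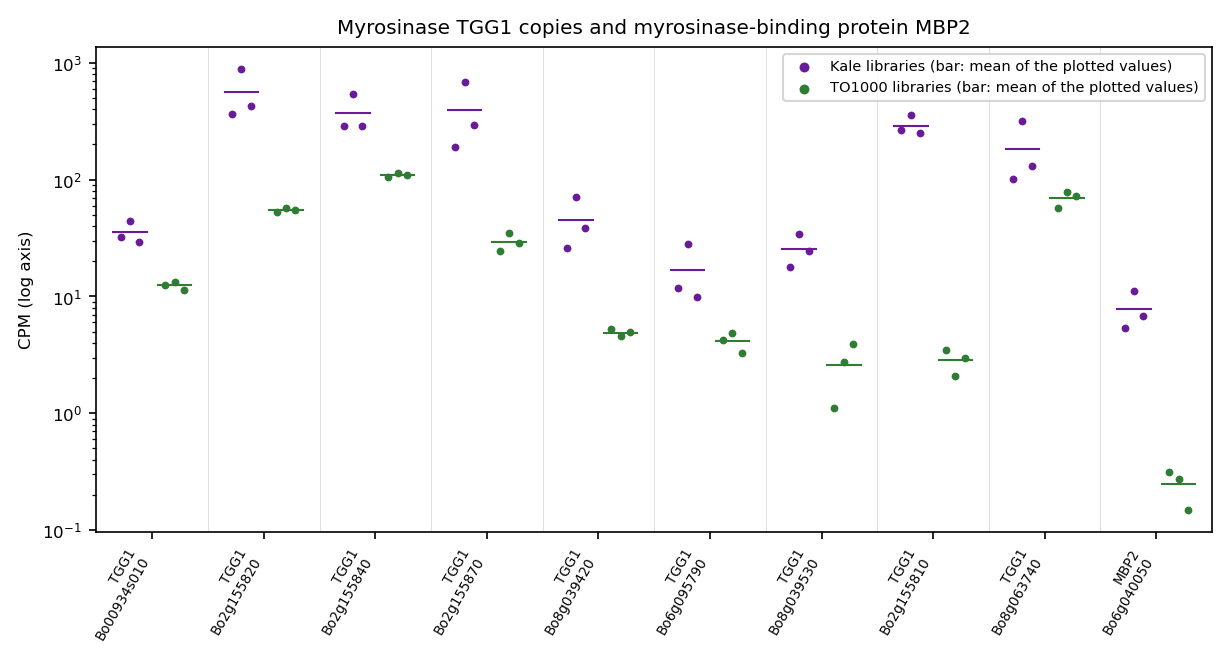
CPM on a log axis for the 9 TGG1 copies and MBP2 in each library, Kale left of TO1000, with bars at the mean. Kale lies above TO1000 in every gene without overlap, as in 27.6% of all tested features. The margins are widest in Bo2g155810 and MBP2, and Kale replicate 2 is the highest library each time. For MBP2 the lack of overlap was fixed by the filter, which it passed through Kale only.

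Of 5 genes of glucosinolate synthesis, 4 were higher in Kale and 1 was lower, against 13.6% and 13.2% of all tested features. MYB29 and IGMT1 Bo2g092580 passed the filter through Kale only and IGMT1 Bo2g092680 through TO1000 only. MYB29 (Bo9g175680), an activator of the aliphatic branch, had 5.81, 3.25 and 3.64 CPM in the Kale libraries, against 0.158, 0 and 0 CPM in the TO1000 libraries, a Kale to TO1000 ratio of 89.9 (95% counting interval 15.7 to 3599). AOP3 (Bo3g052110), which modifies aliphatic side chains, had 7.61, 10.1 and 5.58 CPM in the Kale libraries, against 1.90, 0.966 and 2.09 CPM in the TO1000 libraries (log2 fold change 2.24, SE 0.37, adjusted p = 2.38e-04, edgeR). The copies of IGMT1, a methyltransferase of indole glucosinolates, moved in opposite directions. IGMT1 Bo2g092580 had 3.74, 1.98 and 4.12 CPM in the Kale libraries, against 0.792, 0.966 and 0.299 CPM in the TO1000 libraries (log2 fold change 2.21, SE 0.50), while IGMT1 Bo2g092680 had 0, 0.541 and 0 CPM in the Kale libraries, against 2.85, 1.52 and 2.39 CPM in the TO1000 libraries, a TO1000 to Kale ratio of 12.5 (95% counting interval 4.02 to 62.9). Its fitted log2 fold change, -3.51, was -2.81 without Kale replicate 1. IGMT4 (Bo9g094320) overlapped between the lines, with 9.97, 3.79 and 7.03 CPM in the Kale libraries, against 3.01, 2.21 and 4.33 CPM in the TO1000 libraries (log2 fold change 1.14, SE 0.38, adjusted p = 0.0262, edgeR), and its call was lost without Kale replicate 1 (adjusted p = 0.185) or TO1000 replicates 1 (0.0657) or 2 (0.114).

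MYB96 (Bo2g082270), a regulator of cuticular wax, had 133, 160.5 and 107 CPM in the Kale libraries, against 64.8, 62.4 and 61.6 CPM in the TO1000 libraries (log2 fold change 1.09, SE 0.17, adjusted p = 1.77e-04, edgeR) and fell inside the fold limit without Kale replicate 2 (log2 fold change 0.92). ACX5 (Bo3g028490), an acyl-CoA oxidase that serves jasmonate synthesis, was lower, with 2.63, 2.16 and 4.61 CPM in the Kale libraries, against 9.98, 6.35 and 9.25 CPM in the TO1000 libraries (log2 fold change -1.48, SE 0.33, adjusted p = 0.00227, edgeR).

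Of 12 trichome identifiers 9 were tested, and all 9 were called (26.8% of all tested features), 6 higher (13.6%) and 3 lower in Kale (13.2%). GL1, GL2, WRKY44 and MYB106 Bo8g104210 passed the filter through Kale only, and XIK through TO1000 only. The core complex did not move as one. GL1 (Bo7g090950), the R2R3-MYB of that complex, had 1.94, 2.88 and 1.94 CPM in the Kale libraries, against 0.158, 0 and 0 CPM in the TO1000 libraries, a Kale to TO1000 ratio of 45.6 (95% counting interval 7.70 to 1847). GL2 (Bo6g079990), the homeodomain factor that the complex switches on, had 8.31, 14.8 and 8.0 CPM in the Kale libraries, against 0.158, 0.414 and 1.34 CPM in the TO1000 libraries (log2 fold change 3.98, SE 0.49). Both were low in every TO1000 library, and GL2 stood at 5.04 without TO1000 replicate 3. EGL3 (Bo9g035460), a bHLH partner of GL1, went the other way, with 4.85, 6.49 and 5.58 CPM in the Kale libraries, against 29.3, 20.1 and 23.7 CPM in the TO1000 libraries (log2 fold change -2.12, SE 0.22, adjusted p = 5.80e-06, edgeR). TRY (Bo1g051040), the small MYB that inhibits neighbouring cells, had 39.5, 61.7 and 51.4 CPM in the Kale libraries, against 18.2, 27.9 and 21.3 CPM in the TO1000 libraries (log2 fold change 1.17, SE 0.20, adjusted p = 4.01e-04, edgeR) and stood at a log2 fold change of 0.99 without Kale replicate 2. Summed over these 4 genes the level was 54.5 to 85.8 CPM in Kale and 46.4 to 48.4 CPM in TO1000. TRY gave most of the reads in that sum in Kale, and EGL3 and TRY gave most of them in TO1000, with gene length not taken into account.

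MYB106, which shapes outgrowing epidermal cells, was higher in both named copies. MYB106 Bo5g156410 had 23.3, 23.4 and 17.0 CPM in the Kale libraries, against 9.03, 7.73 and 8.66 CPM in the TO1000 libraries (log2 fold change 1.33, SE 0.20, adjusted p = 1.33e-04, edgeR). MYB106 Bo8g104210 had 5.26, 3.43 and 2.18 CPM in the Kale libraries, against 0, 0.276 and 0.448 CPM in the TO1000 libraries (log2 fold change 3.82, SE 0.64). The value of Bo8g104210 was 4.48 without TO1000 replicate 3. WRKY44 Bo3g031650, a factor of trichome and seed coat development, had 7.20, 7.75 and 7.51 CPM in the Kale libraries, against 0.475, 0.138 and 0.746 CPM in the TO1000 libraries (log2 fold change 4.01, SE 0.44). Its second copy, Bo4g030720, was below the filter with 31 counts over Kale against 1 over TO1000, and the ratio was 37.2 (95% counting interval 6.19 to 1515). HDG11 (Bo4g039530), a homeodomain factor that limits branching, was lower, with 4.85, 3.79 and 2.42 CPM in the Kale libraries, against 17.7, 10.9 and 10.0 CPM in the TO1000 libraries (log2 fold change -1.75, SE 0.30, adjusted p = 4.07e-04, edgeR). XIK (Bo5g027850), a myosin that moves organelles in growing trichomes, had 0.138, 0 and 0 CPM in the Kale libraries, against 1.74, 1.52 and 1.49 CPM in the TO1000 libraries, a TO1000 to Kale ratio of 26.7 (95% counting interval 4.46 to 1087).

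The other listed members reached the minimum level in too few libraries to be tested. CML42 (Bo3g162280), a calmodulin-like protein, had 43 counts over Kale against 2 over TO1000, and the ratio was 25.8 (95% counting interval 6.72 to 219.7). MYB80 (Bo8g091080), which the study lists with the trichome genes and which is known from the anther tapetum of Arabidopsis, had 0 counts in Kale and 18 in TO1000, which puts TO1000 at least 5.00-fold higher.

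Leaf genes split evenly, with 5 of 10 higher in Kale, 4 lower and 1 not called, against 13.6% and 13.2% of all tested features. All 10 reached the minimum level in some library of each line. ANT (Bo3g153310), an AP2-type factor that keeps young organs dividing, had 13.8, 7.93 and 7.76 CPM in the Kale libraries, against 36.8, 25.4 and 26.7 CPM in the TO1000 libraries (log2 fold change -1.55, SE 0.24, adjusted p = 1.75e-04, edgeR). GRF4 (Bo4g122960), a growth-regulating factor, had 2.77, 2.7 and 2.91 CPM in the Kale libraries, against 10.1, 8.14 and 5.82 CPM in the TO1000 libraries (log2 fold change -1.52, SE 0.30, adjusted p = 0.00115, edgeR). GRF3 (Bo4g186220), of the same family, had 4.57, 5.23 and 5.58 CPM in the Kale libraries, against 7.76, 11.2 and 9.25 CPM in the TO1000 libraries (log2 fold change -0.89, SE 0.25, adjusted p = 0.0101, edgeR), short of the fold limit, and was called without TO1000 replicate 1 (log2 fold change -1.01). ASL6 (Bo7g041000), of the LOB-domain family of organ boundary factors, had 6.51, 5.95 and 4.61 CPM in the Kale libraries, against 15.8, 27.9 and 20.1 CPM in the TO1000 libraries (log2 fold change -1.88, SE 0.25, adjusted p = 4.57e-05, edgeR). HAT5 (Bo5g155120), a homeodomain-leucine zipper factor, had 10.1, 8.11 and 11.9 CPM in the Kale libraries, against 20.1, 28.8 and 30.4 CPM in the TO1000 libraries (log2 fold change -1.41, SE 0.22, adjusted p = 1.60e-04, edgeR). In all 5 genes the Kale libraries lay below those of TO1000 without overlap, as in 25.7% of all tested features.

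The leaf genes that were higher included BLH1, a BEL1-like partner of KNOX proteins, in both named copies. BLH1 Bo3g029830 had 39.9, 30.3 and 39.8 CPM in the Kale libraries, against 9.35, 12.8 and 14.9 CPM in the TO1000 libraries (log2 fold change 1.56, SE 0.20, adjusted p = 3.56e-05, edgeR). BLH1 Bo4g142080 had 31.6, 23.8 and 30.8 CPM in the Kale libraries, against 13.9, 11.9 and 14 CPM in the TO1000 libraries (log2 fold change 1.11, SE 0.18, adjusted p = 2.63e-04, edgeR). For bHLH64 (Bo3g094060), a bHLH protein, values were 4.01, 7.03 and 12.1 CPM in the Kale libraries, against 2.38, 1.10 and 1.04 CPM in the TO1000 libraries (log2 fold change 2.31, SE 0.46, adjusted p = 0.00111, edgeR), with Kale replicate 3 the highest. NGA1 (Bo3g039420), a B3 factor that restrains blade growth, had 13.4, 9.92 and 8.97 CPM in the Kale libraries, against 6.65, 4.69 and 4.18 CPM in the TO1000 libraries (log2 fold change 1.08, SE 0.26, adjusted p = 0.00443, edgeR), and was lost without Kale replicate 1 (log2 fold change 0.85) or TO1000 replicate 3 (0.94). BLI (Bo3g082080), a partner of Polycomb proteins, had 3.18, 6.31 and 3.39 CPM in the Kale libraries, against 1.27, 1.79 and 2.24 CPM in the TO1000 libraries (log2 fold change 1.27, SE 0.40, adjusted p = 0.0204, edgeR), and was lost without Kale replicate 2 (adjusted p = 0.139), TO1000 replicate 1 (0.0659) or TO1000 replicate 2 (0.0635).

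Genes of shoot branching and auxin had 9 identifiers, of which 7 were tested. All 7 were called (26.8% of all tested features), 5 higher (13.6%) and 2 lower (13.2%), and both REVOLUTA copies and AXR1 Bo8g102450 passed the filter through Kale only. REVOLUTA, a class III homeodomain factor needed for axillary meristems, was nearly unread in TO1000. REVOLUTA Bo7g021280 had 9.69, 5.77 and 4.61 CPM in the Kale libraries, against 0, 0 and 0.149 CPM in the TO1000 libraries, a ratio of 145 (95% counting interval 25.6 to 5778). REVOLUTA Bo9g130730 had 2.22, 1.98 and 2.42 CPM in the Kale libraries, against 0, 0 and 0.299 CPM in the TO1000 libraries, a ratio of 22.2 (95% counting interval 5.72 to 190.0). TCP18 (Bo3g071570), the repressor of bud outgrowth, was below the filter with 0.554, 1.80 and 2.18 CPM in the Kale libraries, against 0 in every TO1000 library, in all 23 counts, at least 9.19-fold higher in Kale.

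The strigolactone genes moved in opposite directions. DWARF27 (Bo9g035190), the carotenoid isomerase at the start of that pathway, had 8.31, 3.25 and 6.79 CPM in the Kale libraries, against 2.53, 2.21 and 1.64 CPM in the TO1000 libraries (log2 fold change 1.52, SE 0.39, adjusted p = 0.00576, edgeR). MAX1 (Bo3g042090), a cytochrome P450 of a later step, had 10.7, 12.8 and 11.4 CPM in the Kale libraries, against 35.2, 21.3 and 23.7 CPM in the TO1000 libraries (log2 fold change -1.20, SE 0.22, adjusted p = 5.64e-04, edgeR), and its log2 fold change was -0.95 without TO1000 replicate 1, which was the highest library. PID (Bo4g182790), a kinase that directs auxin transport, had 8.17, 4.87 and 7.51 CPM in the Kale libraries, against 1.90, 1.10 and 1.34 CPM in the TO1000 libraries (log2 fold change 2.24, SE 0.36, adjusted p = 2.16e-04, edgeR).

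AXR1, a subunit of the enzyme that activates the ubiquitin-like RUB protein in auxin response, had copies on both sides. AXR1 Bo8g102450 had 9.28, 5.41 and 5.33 CPM in the Kale libraries, against 0 in every TO1000 library, at least 47.6-fold higher in Kale. AXR1 Bo8g115290 had 1.94, 1.80 and 0.485 CPM in the Kale libraries, against 12.8, 7.45 and 8.21 CPM in the TO1000 libraries (log2 fold change -2.64, SE 0.39, adjusted p = 1.09e-04, edgeR). Below the filter, AXR1 Bo8g052710 had 5.26, 3.79 and 1.70 CPM in the Kale libraries, against 0, 0.414 and 0.299 CPM in the TO1000 libraries. The sum of these 3 copies was 16.5, 11 and 7.51 CPM in the Kale libraries, against 12.8, 7.87 and 8.51 CPM in the TO1000 libraries, and there the lines overlapped.

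Of the vitamin genes 2 were higher and 3 lower in Kale, against 13.6% and 13.2% of all tested features. VTC5 passed the filter through Kale only, and ASO Bo7g118970 and Bo2g165650 through TO1000 only. VTC5 (Bo2g041230), GDP-L-galactose phosphorylase of vitamin C synthesis, had 12.6, 20.0 and 17.9 CPM in the Kale libraries, against 0.158, 0.828 and 0.448 CPM in the TO1000 libraries (log2 fold change 5.03, SE 0.39). Without TO1000 replicate 2 the VTC5 value was 5.67. L-ascorbate oxidase, which oxidises vitamin C in the cell wall, fell in all 3 named copies. ASO Bo9g150050 had 5.12, 3.79 and 4.61 CPM in the Kale libraries, against 22.0, 31.3 and 36.9 CPM in the TO1000 libraries (log2 fold change -2.73, SE 0.25, adjusted p = 1.30e-06, edgeR). ASO Bo7g118970 and Bo2g165650 had 0 counts in Kale, against 36 and 46 in TO1000, so TO1000 was at least 10.0-fold higher for one and at least 12.8-fold higher for the other. THIC (Bo4g061330), the first enzyme of the thiamin pyrimidine branch, had 767, 671 and 899.8 CPM in the Kale libraries, against 241, 246 and 248 CPM in the TO1000 libraries (log2 fold change 1.67, SE 0.17, adjusted p = 4.66e-06, edgeR).

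Among genes of minerals and leaf protein, 4 were higher and 5 lower in Kale, against 13.6% and 13.2% of all tested features. FER3, bHLH100 and the chaperonin beta gene passed the filter through Kale only, and CML42 through TO1000 only. FER3 (Bo2g156090), a ferritin that stores iron, had 9.28, 4.51 and 5.33 CPM in the Kale libraries, against 0.317, 0 and 0 CPM in the TO1000 libraries, a ratio of 68.3 (95% counting interval 18.5 to 571). LSC30 (Bo3g001360), named a ferritin-1, had 59.9, 77.9 and 55.8 CPM in the Kale libraries, against 22.5, 28.6 and 21.2 CPM in the TO1000 libraries (log2 fold change 1.42, SE 0.18, adjusted p = 3.06e-05, edgeR). The symbol LSC30 is also attached to Bo8g059760, a ferredoxin. That gene had 9.28, 9.01 and 8.24 CPM in the Kale libraries, against 16.0, 21.8 and 18.2 CPM in the TO1000 libraries (log2 fold change -1.07, SE 0.20, adjusted p = 7.12e-04, edgeR) and stood at -0.95 without TO1000 replicate 2. In bHLH100 (Bo4g013080), a factor induced by iron shortage, the Kale libraries were far apart, with 20.2, 5.05 and 1.94 CPM in the Kale libraries, against 0.317, 0.276 and 0 CPM in the TO1000 libraries (log2 fold change 5.45, SE 0.93), and a value of 4.03 without Kale replicate 1.

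The Rubisco-binding chaperonin showed unlike subunits. The beta subunit gene Bo6g034560 had 8.86, 13.7 and 8.73 CPM in the Kale libraries, against 1.11, 0.552 and 0.448 CPM in the TO1000 libraries (log2 fold change 3.87, SE 0.39). The alpha subunit gene Bo04491s010 had 5.40, 3.61 and 2.67 CPM in the Kale libraries, against 9.66, 10.5 and 10.6 CPM in the TO1000 libraries (log2 fold change -1.34, SE 0.27, adjusted p = 0.00126, edgeR). The 3 calcium-binding genes of this group were lower, while CML42 Bo3g162280, given with the trichome genes, had more counts in Kale. CML26 (Bo6g117890) had 3.88, 3.97 and 3.39 CPM in the Kale libraries, against 11.7, 12.4 and 12.7 CPM in the TO1000 libraries (log2 fold change -1.70, SE 0.23, adjusted p = 4.99e-05, edgeR), and CP1 (Bo9g009850) had a log2 fold change of -1.75 and CML42 Bo01178s020 one of -2.37. The CML42 value was -1.77 without Kale replicate 1 and -3.12 without Kale replicate 3.

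Markers of tissues other than the vegetative shoot were few. The floral AP1 and the root gene AGL12 differed in opposite directions as given above, and the anther gene MYB80 was at 0 in every Kale library and between 0.448 and 1.52 CPM in TO1000. REVOLUTA and TCP18, with roles in axillary meristems and bud outgrowth, were at or near 0 in TO1000. The part that tissue makeup plays in the changes was not tested. No KNOX gene was among the genes followed and none was set as a shoot meristem marker, so the labelled meristem was not checked.

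Some genes were read in one line only. With all libraries thinned to 4742169 reads, 106 features (0.175% of 60586) had at least 10 counts in each Kale library and 0 in each TO1000 library. The reverse held for 157 features (0.259%). AXR1 Bo8g102450 was the one gene named by the study among them. Numbers without thinning were 102 for Kale and 185 for TO1000, so some of the 106 had TO1000 reads in the full counts. The order of the thinned counts turned when TO1000 replicate 2 was left out (177 for Kale and 173 for TO1000) or TO1000 replicate 3 (182 and 175). Without Kale replicate 3, the smallest library, thinning was to 5310933 reads and the TO1000 count was 276. Without TO1000 replicate 1 the Kale count was 162. Libraries were thinned anew each time, and 88 of the 106 Kale features stayed without Kale replicate 1. Reads of both lines were placed on the TO1000 genome, so a Kale gene that is absent from it, or too unlike it to map, has no count at all, and the part of this in the result was not tested.

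Of the features that the study does not name, Bo6g040070 had the largest rise, with 62.4, 109.8 and 86.8 CPM in the Kale libraries, against 0 in every TO1000 library. Its 1418 counts put Kale at least 567-fold higher. In identifier order it is the next tested gene after MBP2. Bo9g160110 followed, with 60.4, 45.6 and 43.6 CPM in the Kale libraries, against 0 in every TO1000 library, at least 347-fold higher. On the other side, Bo9g148100 had 0 in every Kale library, against 70.3, 51.9 and 46.4 CPM in the TO1000 libraries, with TO1000 at least 314-fold higher. The non-coding feature ENSRNA049454305 had 0 in every Kale library, against 32.2, 69.6 and 48.8 CPM in the TO1000 libraries, with TO1000 at least 287-fold higher. No name or role is given here for these identifiers, and as they were picked for size and for a lack of overlap, their values are a description.

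The identifiers number genes along each of 9 chromosomes, which allowed calls to be set out by place. The share higher in Kale was 13.0% to 14.5% on the chromosomes and the share lower 11.7% to 14.7%, both close to the 13.6% and 13.2% of all tested features. Of 834 genes on unplaced scaffolds, 116 were higher (13.9%) and 231 lower (27.7%). Of 72 non-coding features, 6 were higher (8.33%) and 30 lower (41.7%). Their median log2 fold changes were -0.22 on scaffolds and -0.76 for non-coding features, against 0.00 over all tested features.

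**Figure D5:**
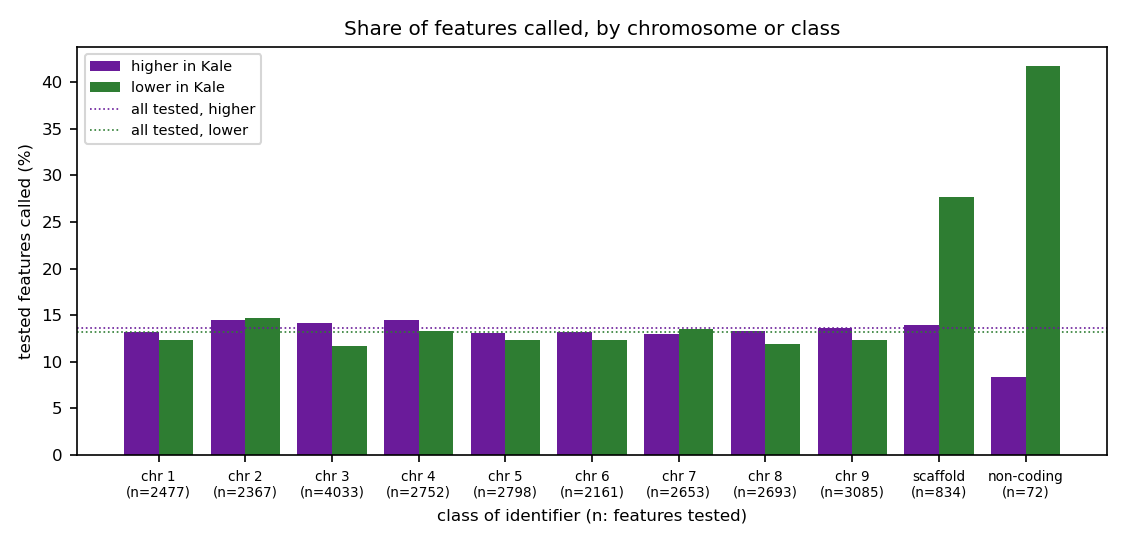
Percent of tested features called higher and lower in Kale for each chromosome, for unplaced scaffolds and for non-coding features, with dotted lines at the shares over all tested features (13.6% and 13.2%). The chromosomes keep near the lines, while the lower share reaches 27.7% on scaffolds and 41.7% in the 72 non-coding features.

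Called genes lay beside others called in the same direction somewhat more often than the share of all genes. Of 3412 chromosomal genes higher in Kale that have a next tested gene, 626 (18.3%) had one that was higher too, against 13.6% of all tested genes on chromosomes. Of 3157 lower genes, 539 (17.1%) were followed by a lower one, against 12.6%. Runs of at least 4 such genes numbered 48, 27 higher with 117 genes and 21 lower with 93 genes, and 35 of the 48 were exactly 4 long. The 4 TGG1 copies on chromosome 2 form one of them. Another, also on chromosome 2, holds 5 genes that end with ASO Bo2g165650 and totals 128 counts in Kale and 4978 in TO1000, with a median log2 fold change of -7.30. HDG11 and BLH3 lie in runs of 4 genes, lower and higher in Kale. Genes in a run may share reads, and the runs are given as a description.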

How the data were processed

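Counts of 6 libraries were used, 3 of Kale and 3 of TO1000, mapped to their line by title. As the methods and the labels state, primers and adapters were removed with Cutadapt 2.4, STAR aligned the reads against TO1000, and the authors deposited raw counts per gene, without normalization. The cDNA was amplified by PCR and called normalized before library preparation, with no molecular identifiers, which could compress differences between abundant genes. The strand column is not given in the sources used here, so genes overlapping on opposite strands are less certain, and near-identical copies may exchange reads.

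Counts were tested in R 4.3.3 with edgeR 4.0.16 (filterByExpr with a minimum count of 10 and total of 15, TMM factors, quasi-likelihood F test, two-sided), line being the only term, with Benjamini-Hochberg adjustment over 25925 features. The SE of a fold change is its log2 value over the root of F. DESeq2 1.42.0 was an alternative. Named genes were the 79 that the study pairs with identifiers, and the 2 higher and 2 lower others of largest fold that did not overlap and had at least 10 counts in each library of the higher line. Members and lists were chosen with earlier results of these data known. Roles are background knowledge. None of the 79 identifiers was found in the RefSeq gene table, so no sequence, coordinates or gene length are given. Apart from shares of reads in a sum, levels are not compared between genes. Replicates of a line differed beyond sampling noise (chi-square per gene 5.74 or more). The procedure was tested on counts simulated from the fitted model, which cannot show how well that model describes these libraries.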

Additional observations from a re-analysis of the deposited data

How the results depend on the processing

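The number of called genes was within 1.5 times 6957 under each alternative except glmTreat (3853) and adjusted p alone (11272), and leaving out single libraries gave 6883 to 7849. Of the named genes, 70 were called, between 65 and 73 with single libraries left out and 51 with glmTreat. No named gene changed direction under any alternative. Of the 75 genes and features followed, 55 kept their side of the threshold in every setting that tested them, 9 were lost under glmTreat alone and 10 under another setting, and GRF3 was gained. Of the 75, 10 dropped out of the test in at least 1 setting, most often with thinned libraries, where 60 named genes were called. Without a count filter 9779 genes were called, with 5168 lower in Kale, and the median log2 fold change of all genes was -0.20, against 0.00 with the filter. DESeq2 called 6579 genes. Whether replicate numbers pair the libraries was not settled. Deviations of same-numbered libraries correlated at 0.00, -0.03 and 0.15 across genes, and 0.15 was the highest value of any Kale and TO1000 pair. The methods describe a randomized block layout of the plants, and the labels give no block for a library. With the replicate number as a block 6883 genes were called, 70 of them named genes.

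Features read in Kale only numbered 218 at a minimum of 5 counts, 57 at 20 counts and 431 when up to 2 counts were allowed in TO1000. For TO1000 only these numbers were 289, 81 and 460. Leaving out single libraries gave 117 to 182 for Kale and 173 to 276 for TO1000, with the libraries thinned anew. The 276 came without Kale replicate 3, where the libraries were thinned to a greater depth. Runs of neighbours numbered 14 with glmTreat, 134 by adjusted p alone, 186 at 3 genes or more and 3 at 6 genes or more. The ratio of distances between lines to distances between replicates was 2.66, with 6.90 on the 500 most variable genes and 5.70 on Spearman correlation. Depth limits genes below about 0.2 CPM, which a count of 0 does not exclude.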

Other observations

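Reads were also summed over the copies of a gene that the study names. These copies were picked for a difference and may not be all of a family, so the sums are partial. IGMT1, with 2 copies that differed in opposite directions, summed to 3.74, 2.52 and 4.12 CPM in the Kale libraries, against 3.64, 2.48 and 2.69 CPM in the TO1000 libraries. The CML42 pair summed to 1.52, 5.05 and 3.64 CPM in the Kale libraries, against 2.38, 4.28 and 4.33 CPM in the TO1000 libraries. Both sums overlapped between the lines. For the 2 named FLC copies the sum was 48.2, 32.5 and 36.8 CPM in Kale, against 4.12, 4.83 and 3.88 CPM in TO1000. The 2 SOC1 copies summed to 4.98, 3.79 and 2.91 CPM in Kale, against 15.8, 16.7 and 12.7 CPM in TO1000. The 3 named ascorbate oxidase copies together had 5.12, 3.79 and 4.61 CPM in Kale, against 25.5, 36.3 and 40.4 CPM in TO1000. These sums were chosen after the values were seen and were not tested.

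Among the 45 named genes called higher in Kale, the highest Kale library was replicate 2 in 21, replicate 1 in 18 and replicate 3 in 6.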
